A study of Mus musculus with 31 samples.

Results

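Ifitm1, Ifitm2, Ifitm3, Ifitm6, Ifi27l2a, Isg15, Irf7, Oasl2 and Ifngr1 were followed in 31 single lung cells. They are 9 of 47069 genes in the deposited tables and were picked by symbol with their values in these cells already known, so their levels are given as a description and no test was made on them. The cells came from right lung lobes of 10-week-old Csf1r-GFP reporter mice, 7 days after a sham operation in which the chest was opened. They had been sorted as CD45+, CSF1R-GFP+, F4/80+ macrophages with Ly6G given in the label without a sign, and were captured on a Fluidigm C1 chip. All 31 carried the same genotype, operation, age and day, and the labels name no animal, so they form 1 group that counts as 1 sample. Levels are FPKM, fragment counts divided by transcript length and by the mapped fragments of the library, and presence of a gene means at least 1 FPKM.

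Interferons are secreted cytokines that bind paired receptor chains, activate Janus kinases and STAT factors, and switch on a large set of antiviral genes. The Ifitm genes encode small membrane proteins that hinder fusion of enveloped viruses with cell membranes, and IFITM3 limits influenza infection of the mouse lung. Isg15 encodes a ubiquitin-like modifier, Irf7 the transcription factor that amplifies type I interferon production, Oasl2 a member of the 2′-5′ oligoadenylate synthetase-like family, and Ifi27l2a a small interferon-induced protein of the ISG12 family. Ifngr1 encodes the ligand-binding chain of the interferon gamma receptor and is widely expressed without induction.

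Values are given first for the 20 cells with 1000 FPKM or more of Lyz2, the lysozyme gene of monocytes and macrophages, and then for the 11 other cells. The lowest of the 20 was cell C7 at 1229 FPKM of Lyz2, and the highest of the 11 was cell D10 at 553 FPKM. C7 held Ifitm2, Ifitm3, Ifi27l2a and Oasl2, while D10 held Ifitm2 and Oasl2. The 20 cells had total expected counts of 521492 to 4059833 (median 1591648), of which 87.4% to 95.6% came from protein-coding genes. The 11 other cells had total counts of 120835 to 1592301 (median 413337), and 10 of them had a coding share of 32.8% to 61.6%. The eleventh, cell F11, had a coding share of 87.9% and no Lyz2. Low levels of the 9 genes among the other cells therefore cannot be told apart from the poor coding content of those 10 libraries. In the 20 cells, all 10 classical monocyte markers were found, with Ccr2, the monocyte chemokine receptor, in 16 cells and Ly6c2 in 10. Of 10 nonclassical monocyte markers, 9 were found, with Gngt2 in 16 cells, Nr4a1 in 13 and Itgal in 12. Of 10 interstitial macrophage markers, 8 were found, while all 9 alveolar macrophage markers and all T cell, NK cell and epithelial markers were absent in every one of the 20 cells. Some markers of other types were found in them: 4 of 8 neutrophil markers (summed up to 406 FPKM, Cxcr2 in 10 cells, S100a9, Retnlg, Ltf and Lcn2 at 0), 3 of 6 B cell markers (up to 1045 FPKM, Cd79a and Pax5 at 0) and 2 of 6 dendritic cell markers (up to 39.2 FPKM). Of the endothelial, fibroblast and platelet lists 1 marker each was found. The label macrophages therefore covered cells with monocyte markers as well as cells with C1q genes.

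The 4 Ifitm genes lie within 63.1 kb of chromosome 7 (GRCm38, GENCODE M21). Ifitm2 spans chr7:140954837-140955987 on the minus strand, Ifitm1 chr7:140967221-140969825 on the plus strand, Ifitm3 chr7:141009586-141010770 on the minus strand and Ifitm6 chr7:141015699-141017924 on the minus strand. Irf7 lies on the same chromosome at chr7:141262706-141266481, Isg15 at chr4:156199424-156200818, both on the minus strand. Oasl2 lies at chr5:114896936-114912234 and Ifngr1 at chr10:19591949-19610229, both on the plus strand, and Ifi27l2a at chr12:103442167-103443680 on the minus strand.

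Promoter windows of 300 bases, 250 before and 50 after the RefSeq start (GRCm38.p6), are shown for the pair of Ifitm genes present in most cells, for the Ifitm gene present in a subset of cells, and for Isg15, the textbook interferon target that few cells held. Capitals mark the core of the interferon-stimulated response element, searched as GAAA, any 2 bases and GAAA, the sequence bound by the interferon-activated STAT and IRF complex. Both strands were searched, and each sequence reads 5′ to 3′ on the strand of its gene, which is the minus strand for these 4 genes.
Ifitm2 (chr7:140955912-140956211): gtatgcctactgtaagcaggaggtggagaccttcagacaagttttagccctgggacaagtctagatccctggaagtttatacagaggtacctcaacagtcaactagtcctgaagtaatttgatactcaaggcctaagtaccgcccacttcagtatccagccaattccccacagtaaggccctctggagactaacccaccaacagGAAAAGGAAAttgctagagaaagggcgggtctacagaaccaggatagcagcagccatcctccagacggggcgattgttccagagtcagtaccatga
Ifitm3 (chr7:141010695-141010994): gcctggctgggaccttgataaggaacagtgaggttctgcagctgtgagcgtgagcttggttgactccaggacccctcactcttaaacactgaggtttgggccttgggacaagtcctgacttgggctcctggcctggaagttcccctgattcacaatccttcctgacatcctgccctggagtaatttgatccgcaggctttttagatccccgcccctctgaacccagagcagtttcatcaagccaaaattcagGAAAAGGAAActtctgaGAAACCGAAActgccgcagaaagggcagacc
Ifitm6 (chr7:141016843-141017142): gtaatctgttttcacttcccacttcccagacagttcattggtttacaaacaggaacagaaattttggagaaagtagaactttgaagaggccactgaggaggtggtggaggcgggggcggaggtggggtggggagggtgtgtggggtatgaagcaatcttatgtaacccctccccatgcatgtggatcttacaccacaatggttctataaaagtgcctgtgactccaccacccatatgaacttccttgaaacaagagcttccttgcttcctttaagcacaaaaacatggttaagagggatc
Isg15 (chr4:156200769-156201068): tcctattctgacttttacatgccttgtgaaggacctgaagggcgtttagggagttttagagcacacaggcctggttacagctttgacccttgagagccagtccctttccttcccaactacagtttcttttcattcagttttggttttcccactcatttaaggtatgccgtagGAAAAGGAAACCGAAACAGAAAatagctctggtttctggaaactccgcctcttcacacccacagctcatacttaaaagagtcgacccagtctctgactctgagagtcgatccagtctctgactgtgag
Isg15 held 3 matches that overlap each other, at 78 to 57 bases before its start. Ifitm2 held 1 match 46 to 37 bases before its start. Ifitm3 held 2 matches after its start, at bases 3 to 12 and 20 to 29 of the transcript. No match was found in the windows of Ifitm1, Ifitm6, Irf7, Oasl2 and Ifngr1. The windows of Ifitm1 and Ifitm6 lie inside the GENCODE spans of these genes, so the sequence before their outer GENCODE starts was not searched. Of 32851 RefSeq promoter windows of the same length, 1131 (3.44%) held at least 1 match and 74 (0.225%) at least 2. A match is a run of letters, and its use in these cells was not measured.

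Across the 9 genes, Ifitm2, Ifitm3, Ifi27l2a and Ifngr1 were each present in at least 50% of the 20 Lyz2-high cells, against 9.27% of the 15431 genes present in any of the 31 cells. Ifitm2 was present in all 20 cells, as were 0.927% of all genes. All 9 genes reached at least 10% of the cells, against 49% of all genes. Median levels of 1000 FPKM or more were reached by Ifitm2, Ifitm3 and Ifi27l2a, against 0.92% of all genes. Since the genes were chosen from these values, the shares describe them and no more.

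**Figure D1:**
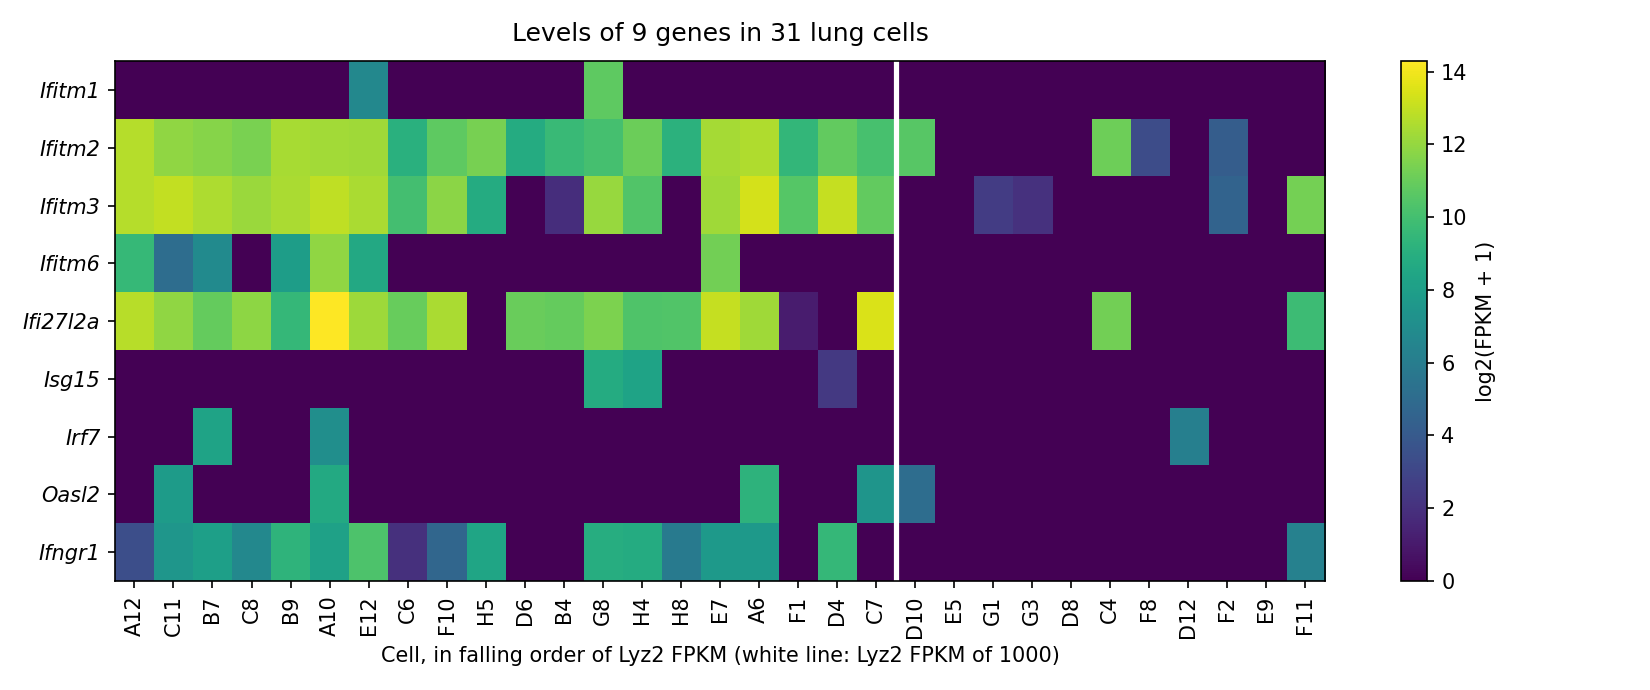
Level of each of the 9 genes (rows) in each of the 31 cells (columns), as log2(FPKM + 1) by colour, with the 20 Lyz2-high cells at left and the 11 other cells at right. Ifitm2 is coloured in all 20 Lyz2-high cells, while Isg15 is coloured in 3 of them and Irf7 in 2.

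Ifitm2 was the member found most widely. It was present in 20 of 20 Lyz2-high cells (100%, exact 95% interval 83.2% to 100%) and in 4 of 11 other cells (36.4%, 10.9% to 69.2%). Its level in the 20 cells was lowest at 440.3 FPKM in D6, had a median of 2396 FPKM and was highest at 6544 FPKM in A12. Among the other cells it was 2245 FPKM in C4, 1497 FPKM in D10, 17.7 FPKM in F2 and 9.18 FPKM in F8, the last on 1 count. C4 and D10 thus lay within the range of the Lyz2-high cells, and the remaining 9 lay below it.

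Ifitm3 was present in 18 of 20 Lyz2-high cells (90%, 68.3% to 98.8%) and in 4 of 11 other cells (36.4%, 10.9% to 69.2%). Its median in the 20 cells was 4387 FPKM, with a highest value of 10547 FPKM in A6. It was at 0 in D6 and H8, at 2.63 FPKM on 1 count in B4 and at 447 FPKM in H5, and in the other 16 Lyz2-high cells it exceeded 1000 FPKM. Of the other cells, F11 held 2518 FPKM, while F2, G1 and G3 held 22.4, 4.81 and 3.09 FPKM, G1 and G3 on 1 count each. The ranges of the Lyz2-high cells and the other cells overlapped at their low ends and through F11.

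Ifitm3 exceeded Ifitm2 in 14 of 20 Lyz2-high cells. The ratio of Ifitm3 to Ifitm2 in the 18 cells with both had a median of 1.63 and ran from 0.00325 in B4 to 4.46 in D4. In 6 cells Ifitm2 was the higher, and in D6 and H8 Ifitm2 stood alone, at 440.3 and 575 FPKM. Over the same 20 cells Ifitm2 averaged 2842 ± 2074 FPKM and Ifitm3 averaged 4100 ± 3216 FPKM (SD over cells). Their means differed by less than these SDs, which describe each gene alone. The spread of the difference within a cell was not computed. Among the genes detected in a cell, Ifitm3 had a median rank of 33.5 in the cells that held it and reached rank 11, and Ifitm2 had a median rank of 76 and reached rank 13.

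**Figure D2:**
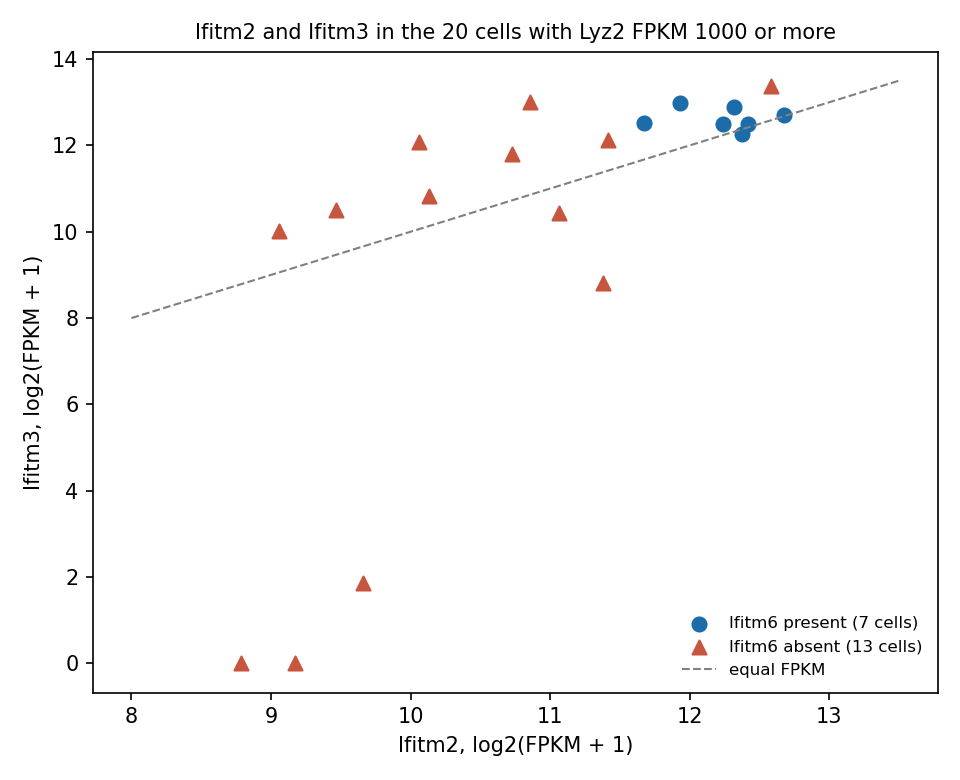
Ifitm3 (vertical axis) against Ifitm2 (horizontal axis), both as log2(FPKM + 1), in the 20 Lyz2-high cells, with circles for the 7 cells with Ifitm6, triangles for the 13 without and a dashed line at equal level. Ifitm3 lies above that line in 14 cells, and the 2 triangles at 0 on the vertical axis are D6 and H8.

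Ifitm2 and Ifitm3 varied together over the 20 cells, with a Spearman rho of 0.78. No other gene among the 1427 present in at least 10 of the 20 cells ranked closer to Ifitm3, whose median rho with those genes was 0.06. The lead was small, as Tmsb10 had a rho of 0.778 with Ifitm3 and Ifitm2 had 0.781. Seen from Ifitm2, Ifitm3 took place 4 among the same genes. These are values over 20 cells of 1 sort that share a capture and library preparation, so rho is a description and carries no p-value. Spearman correlation with total counts lay between -0.27 and -0.07 for Ifitm2, Ifitm3, Ifitm6, Ifi27l2a and Ifngr1. The 2 genes share few long stretches: 20 of the 50-base stretches of their transcripts were common to both, of 606 in Ifitm2 and 629 in Ifitm3. Copies elsewhere share more, since 14.9% of the 50-base stretches of Ifitm2 also occur in the processed pseudogene Gm11951 and 4.61% of those of Ifitm3 in Gm7676, while over all other genes of the tables the shared part was 20.8% for Ifitm2 and 10.0% for Ifitm3. Gm11951 reached at most 18.8 FPKM in any cell and Gm7676 was at 0 in all 31, so the division of reads among these copies is uncertain at that scale.

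Ifitm6, a mouse Ifitm gene known from myeloid cells, marked a subset. It was present in 7 of 20 Lyz2-high cells (35%, 15.4% to 59.2%) and in 0 of 11 other cells, which allows a share of up to 27.3%. Its levels were 3881 FPKM in A10, 2469 FPKM in E7, 762 FPKM in A12, 400.3 FPKM in E12, 244 FPKM in B9, 114 FPKM in B7 and 33.5 FPKM on 11 counts in C11. A10 and E7 stood above 1000 FPKM and the remaining 5 below it. In every cell that held both, Ifitm2 was above Ifitm6.

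The 7 cells with Ifitm6 all held Ifitm2, Ifitm3, Ifi27l2a and Ifngr1 too. Ifitm2 was 3256 to 6544 FPKM (median 5090.3) in the 7 cells with Ifitm6 and 440.3 to 6135 FPKM (median 1121) in the 13 without. Ifitm3 was 4948 to 8070.5 FPKM (median 5857) in the cells with Ifitm6 and 0 to 10547 FPKM (median 1449) in those without. Both ranges overlapped between the cells with and without Ifitm6, since A6, which held no Ifitm6, had the highest Ifitm3 of all cells. Total counts had a median of 1387743 in the cells with Ifitm6 and 1786722 in those without.

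Ifitm6 went with monocyte markers in the same cells. Ly6c2, the surface antigen of classical monocytes, was present in 6 of the 7 cells with Ifitm6 and in 4 of the 13 without, and C1qb, a complement chain of tissue macrophages, in 0 of 7 and 6 of 13. The summed level of 10 classical monocyte markers was 8933 to 26710 FPKM (median 18691) in the cells with Ifitm6 and 8.68 to 17699 FPKM (median 1238) in those without. The sum of 10 nonclassical monocyte markers was 444 to 3891 FPKM (median 2992) with Ifitm6 and 58.8 to 5613 FPKM (median 1014) without. The sum of 10 interstitial macrophage markers was 0 to 0.94 FPKM with Ifitm6 and 0 to 40514.5 FPKM without, and Lyve1 and Cd163 were at 0 in all 20 cells. Neutrophil markers summed to 9.35 to 406 FPKM (median 146) with Ifitm6 and 0 to 376 FPKM (median 5.2) without, and B cell markers to 0 with Ifitm6 and 0 to 1045 FPKM (median 345) without. What part these cell classes have in the level of Ifitm6 was not tested.

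Ifitm1, whose protein acts mainly at the cell surface, was present in 2 of 20 Lyz2-high cells (10%, 1.23% to 31.7%) and in 0 of 11 other cells, which allows up to 27.3%. G8 held 1735 FPKM and E12 held 101 FPKM on 32 counts. G8 was also the cell with the highest Isg15, whereas E12 had none. Both cells held Ly6c2.

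Summed over Ifitm1, Ifitm2, Ifitm3 and Ifitm6, the family made up 0.0403% to 1.34% of all FPKM in a Lyz2-high cell (median 0.634%) and at most 0.209% in any other cell. The sum ran from 440.3 FPKM, all of it Ifitm2, to 16683 FPKM, with a median of 7148 FPKM in the 20 cells and of 4.81 FPKM in the 11 others.

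Ifi27l2a was present in 18 of 20 Lyz2-high cells (90%, 68.3% to 98.8%) and in 2 of 11 other cells (18.2%, 2.28% to 51.8%). Its lowest, median and highest levels in the 20 cells were 0, 2445 and 19952 FPKM. D4 and H5 held none and F1 held 1.14 FPKM on 1 count, and in the remaining 17 cells the level was 741 FPKM or more. In A10, at the highest level, Ifi27l2a ranked 4 among all genes of that cell. C7, the cell with the least Lyz2 of the 20, came next with 11588 FPKM. Of the other cells, C4 held 2390.2 FPKM and F11 held 893 FPKM, both inside the range of the Lyz2-high cells. Ifi27l2a averaged 4177 ± 4770 FPKM (SD over 20 cells), a spread larger than its mean.

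Ifi27l2a had no fixed order with the Ifitm genes. It exceeded Ifitm2 in 11 of the 20 cells and Ifitm3 in 9, and its rho was 0.39 with Ifitm2 and 0.34 with Ifitm3. By median, Ifitm3 stood first, then Ifi27l2a, then Ifitm2 and then Ifngr1, and the first 3 overlapped over most of their ranges. That order is not firm: Ifitm2 was above Ifi27l2a at a Lyz2 minimum of 5000 FPKM (2690 and 2445 FPKM), in the 21 coding-rich cells (2136 and 2060.1 FPKM) and with FPKM rescaled to the same sum in each cell (2229 and 2150.4). At a Lyz2 minimum of 100 FPKM, Ifi27l2a at 1945 FPKM was above Ifitm3 at 1817 FPKM. Ifitm2 exceeded Ifngr1 in 20 of 20 cells. Ifitm1, Ifitm6, Isg15, Irf7 and Oasl2 all had a median of 0.

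Ifngr1 was present in 16 of 20 Lyz2-high cells (80%, 56.3% to 94.3%) and in 1 of 11 other cells (9.09%, 0.230% to 41.3%). Its lowest, median and highest levels in the 20 cells were 0, 191 and 1277 FPKM. E12 was highest, followed by D4 at 730 FPKM and B9 at 624 FPKM, and C7, F1, B4 and D6 had none. Among the other cells it was in F11 alone, at 76.1 FPKM. Ifngr2, the signalling chain of the same receptor, was present in 8 of the 20 cells, and both chains in 6. Ifnar2 and Ifnar1, the type I interferon receptor chains, were present in 13 and 6 cells, with both in 4.

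**Figure D3:**
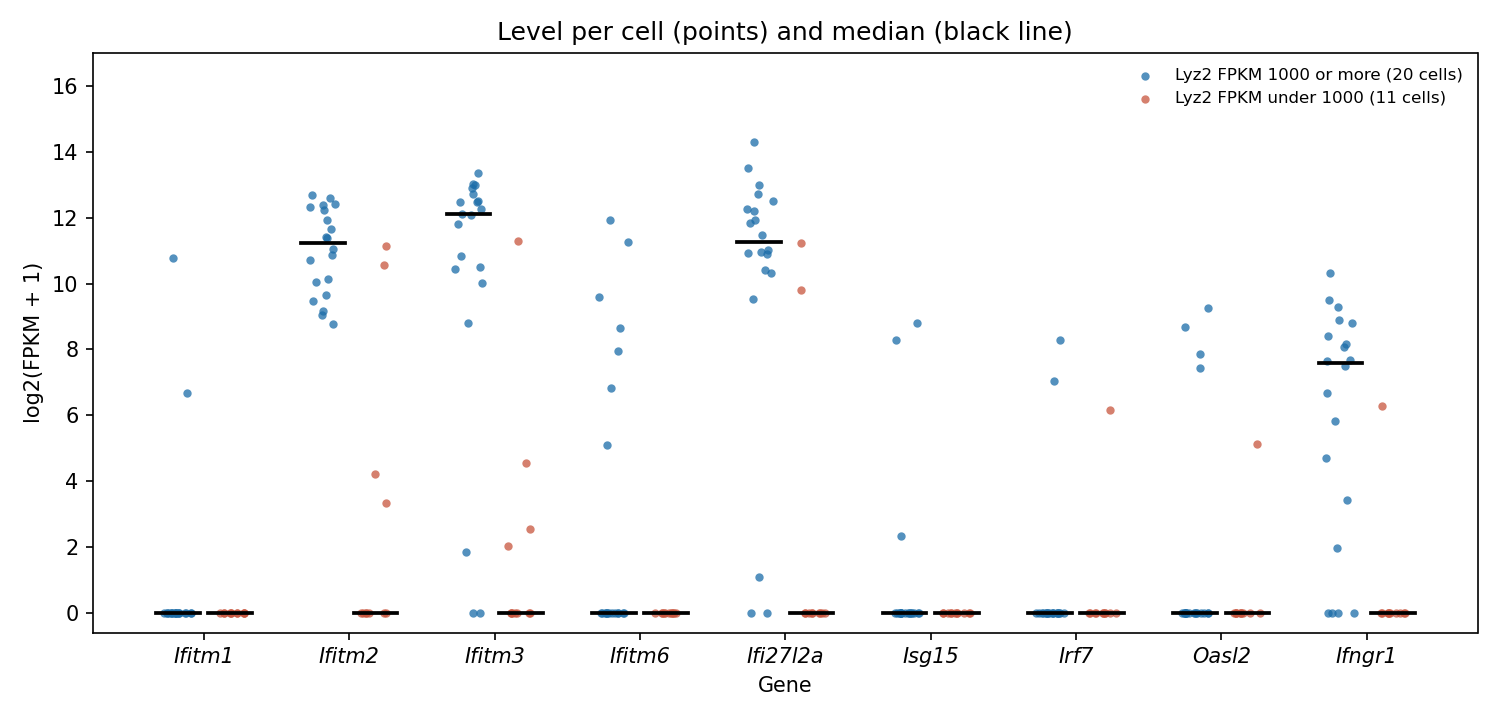
Level of each of the 9 genes as log2(FPKM + 1) on the vertical axis, 1 point per cell, with Lyz2-high cells left of the other cells for each gene and a bar at the median. Ifitm2, Ifitm3 and Ifi27l2a have medians of 2396, 4387 and 2445 FPKM in the 20 Lyz2-high cells, and Ifngr1 has a median of 191 FPKM.

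Isg15, Irf7 and Oasl2 were each present in few cells. Isg15 was present in 3 of 20 Lyz2-high cells (15%, 3.21% to 37.9%) and in 0 of 11 other cells, which allows up to 27.3%. It reached 443 FPKM in G8 and 310.3 FPKM in H4, and D4 had 4.08 FPKM on 4 counts. Irf7 was present in 2 of 20 Lyz2-high cells (10%, 1.23% to 31.7%), B7 at 308 FPKM and A10 at 130.25 FPKM, and in 1 of 11 other cells (9.09%, 0.230% to 41.3%), D12 at 71.2 FPKM on 35 counts. Oasl2 was present in 4 of 20 Lyz2-high cells (20%, 5.73% to 43.7%) and in 1 of 11 other cells (9.09%, 0.230% to 41.3%). Its levels were 607 FPKM in A6, 405 FPKM in A10, 229.7 FPKM in C11 and 172 FPKM in C7, and 33.9 FPKM on 10 counts in D10. All 3 genes thus stayed below 1000 FPKM wherever they were found.

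At least 1 of Isg15, Irf7 and Oasl2 was present in 8 of the 20 cells, and A10, with Irf7 and Oasl2, was the only cell with more than 1. Isg15 was found with neither Irf7 nor Oasl2 in any cell, and with Ifitm6 in none. With Isg15 in 3 cells, Irf7 in 2 and Oasl2 in 4, few shared cells follow from the counts alone. The low overlap is therefore not read as a trait of these genes. The 8 cells all held Ifitm2 and Ifitm3, and 7 of them held Ifi27l2a. The remaining 12 cells held none of the 3 genes.

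The 4 common genes shared many cells, as genes that are each present in most cells must. All 18 Lyz2-high cells with Ifitm3 also held Ifitm2, since Ifitm2 was in all 20. Ifitm3 and Ifi27l2a were together in 16 cells, 88.9% of the cells with either gene taken alone. Ifitm3 and Ifngr1 were together in 15 cells, which is 83.3% of the cells with Ifitm3 and 93.8% of those with Ifngr1. Ifi27l2a and Ifngr1 were together in 14 cells. No cell lacked both Ifitm3 and Ifi27l2a, and none lacked both Ifi27l2a and Ifngr1. The overlaps of these pairs were therefore the smallest that the counts of each gene allow. Ifitm2, Ifitm3, Ifi27l2a and Ifngr1 were all present in 13 of the 20 cells.

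**Figure D4:**
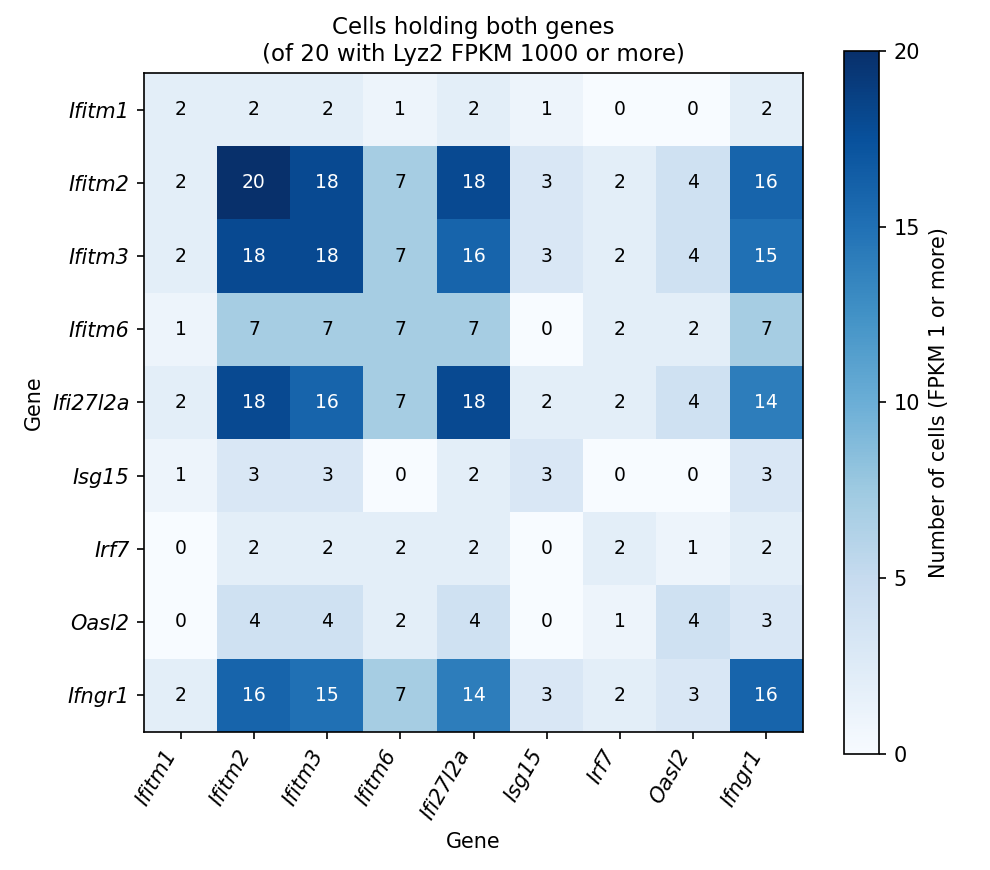
Number of Lyz2-high cells, of 20, that hold both the gene of the row and the gene of the column at 1 FPKM or more, with the count of each gene alone on the diagonal. Ifitm2 and Ifitm3 share 18 cells, while Isg15 shares 0 cells with Irf7, Oasl2 and Ifitm6. The counts on the diagonal limit how many cells a pair can share.

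Of the 9 genes, a Lyz2-high cell held between 2 and 7. A10 held 7, lacking Ifitm1 and Isg15. The number was 6 in 4 cells, 5 in 5 cells, 4 in 5 cells, 3 in 4 cells and 2 in 1 cell. The other cells held fewer: 0 in 3 cells, 1 in 4, 2 in 3 and 3 in F11, which held Ifitm3, Ifi27l2a and Ifngr1 but no Ifitm2. On the log2(FPKM + 1) scale, the mean was higher by 2 or more in Lyz2-high cells than in the others for 5 of the 9 genes, against 8.96% of all genes, and lower by 2 or more for none, against 8.99%. The difference, Lyz2-high minus other cells, was 8.34 for Ifitm2, 8.30 for Ifitm3, 8.13 for Ifi27l2a, 5.27 for Ifngr1 and 3.07 for Ifitm6. It was 1.19 or less for Oasl2, Isg15, Ifitm1 and Irf7, and the median over all genes was -0.10. The coding content of 10 of the 11 other libraries moves with this difference and its part in it was not tested.

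Ly6c2 and C1qb divide the Lyz2-high cells further, and no cell held both. Ifitm2 had a median of 4958 FPKM (1065 to 6544) in the 10 cells with Ly6c2 and of 965 FPKM (440.3 to 3901) in the 10 without. Ifitm3 had a median of 5745 FPKM (1380 to 10547) with Ly6c2 and of 1244 FPKM (0 to 8276) without. Ifngr1 was present in 10 of 10 cells with Ly6c2 (median 277 FPKM) and in 6 of 10 without (median 14.03 FPKM), and Ifi27l2a had medians of 4183 FPKM with and 1945 FPKM without. The ranges overlapped for all 4 genes. Total counts had a median of 1233765 in cells with Ly6c2 and 1812009 in those without. Neutrophil markers summed to 3.37 to 406 FPKM (median 97.3) with Ly6c2 and 0 to 191 FPKM (median 4.79) without, with 4 of the 8 at 0 in all 20 cells. B cell markers were at 0 in all 10 cells with Ly6c2 and summed to 0 to 1045 FPKM (median 429) without. Interstitial macrophage markers summed to at most 1.87 FPKM with Ly6c2 and to a median of 11780 FPKM without. Nonclassical monocyte markers summed to 58.8 to 5613 FPKM (median 2280) with Ly6c2 and 89.4 to 5339 FPKM (median 987.5) without. The part of all these markers in the levels was not tested.

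In the 6 cells with C1qb, Ifitm2 had a median of 757 FPKM (531 to 2656), against 3578 FPKM (440.3 to 6544) in the 14 without. Ifitm3 had a median of 743 FPKM (0 to 1817) with C1qb and of 5745 FPKM (0 to 10547) without. Ifngr1 was present in 3 of 6 cells with C1qb and in 13 of 14 without. Ifi27l2a had a median of 1626 FPKM (0 to 11588) with C1qb and of 3783 FPKM (0 to 19952) without. Ifitm1, Ifitm6, Isg15 and Irf7 were absent from all 6 cells with C1qb. Total counts had a median of 2177839 (767318 to 4059833) in cells with C1qb and 1433691 (521492 to 3526674) in those without, and the ranges overlapped. Other markers moved with this split: B cell markers summed to 345 to 1045 FPKM (median 447) with C1qb and 0 to 508 FPKM (median 0) without, with Cd79a and Pax5 at 0 in all 20 cells. Classical monocyte markers summed to a median of 459 FPKM with C1qb and 14091 FPKM without, and neutrophil markers to 0.44 FPKM with and 28.8 FPKM without. Nonclassical monocyte markers summed to a median of 462 FPKM with C1qb and 2675 FPKM without. The part of these markers in the levels was not tested.

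The genes most like each member over the 20 cells were named by Spearman rho among the 1427 genes present in at least 10 of them, with n = 20 throughout. Nearest to Ifitm3 outside the set were Tmsb10 (rho 0.78), an actin-binding thymosin, Samhd1 (0.75), a nucleotide hydrolase that restricts retroviruses, Ankrd11 (0.74), Cd44 (0.72) and Gm9844 (0.71). Nearest to Ifitm6 were Tmsb10 (0.78), the calcium-binding protein gene S100a6 (0.76), Ly6c2 (0.70), the intermediate filament gene Vim (0.70) and Msrb1 (0.70). For Ifi27l2a they were Ifi27l2b (0.94), Prdx6 (0.73), Rps18 (0.73) and Naca (0.73). For Ifngr1 they were Degs1 (0.69), Sod2 (0.68), Adipor1 (0.65), Rpl34 (0.63) and Cyth1 (0.63). Ifitm6 had a rho of 0.73 with Ifitm2 and of 0.54 with Ifitm3, and Ifngr1 had -0.20 with Ifi27l2a. These lists changed with the measure or cells used, as given under the processing.

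Ifi27l2b, the neighbour in likeness of Ifi27l2a, stood at a small share of its level. Ifi27l2b was present in 17 of the 20 cells, in none without Ifi27l2a, at 0.0545% to 0.226% of the Ifi27l2a level (median 0.187%) and at most 25.3 FPKM. Gm9844 stood likewise at 0.497% to 2.15% of Tmsb10 (median 1.29%), and 60.8% of its 50-base stretches occur in Tmsb10, so the level of Gm9844 is uncertain. Of the 949 stretches of Ifi27l2b, 2 (0.211%) occur in Ifi27l2a. Whether reads were shared was not tested for either pair.

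Beyond the 9 genes, 86 other genes of the interferon pathway were read in 8 lists. In the 20 Lyz2-high cells, 15 of the 86 were present in at least 50% of cells, 55 in at least 10% and 24 in none. Of the 66 present in any of the 31 cells, these are 22.7% at the 50% mark and 83.3% at the 10% mark, beside 9.27% and 49% of all 15431 genes present in any cell. The lists hold genes chosen with results known, and the median level over their genes was 0, as it was over all genes. Of the 8 interferon genes, Ifnb1 was present in 2 cells, B4 at 2563 FPKM and H8 at 536 FPKM, and Ifng, Ifna2, Ifna4, Ifne, Ifnk, Ifnl2 and Ifnl3 in none. Outside the 20, F11 held 3741 FPKM of Ifnb1. B4, H8 and F11 all lacked Isg15, Irf7 and Oasl2, and all 3 held C1qb, at 10373, 5467 and 258 FPKM in B4, H8 and F11. Ifitm3 was at 2.63 FPKM in B4, 0 in H8 and 2518 FPKM in F11, so these cells did not share a level of it.

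Of 12 genes for receptors and signalling, 4 reached at least 50% of cells: Stat3 in 14 cells, Ifnar2 and Il10rb in 13 each and Jak1 in 12. That is 36.4% of the 11 present in any cell, beside 9.27% of all genes. Stat2 was found in 1 cell and Ifnlr1, the type III receptor chain, in none. Of 7 interferon regulatory factors, Irf5, which acts downstream of Toll-like receptors, was found in 14 cells with a median of 205 FPKM over the 20. Irf8, a factor of monocyte development, was found in 8, Irf1 and Irf2 in 7 each, and Irf4 in none. Of 3 feedback genes, Socs3 was found in 12 cells, Usp18, which removes Isg15 from proteins, in 1 and Socs1 in none. Of 3 enzymes that attach Isg15, Ube2l6 was found in 4 cells, Uba7 in 3 and Herc6 in 1. None of them reached at least 50% of cells. At least 10% of cells was reached by 2 of the 3 (66.7%), beside 49% of all genes.

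Of 33 type I interferon targets, 7 reached at least 50% of cells and 24 at least 10%, which is 24.1% and 82.8% of the 29 present in any cell, beside 9.27% and 49% of all genes. Ly6e was found in 18 cells (median 1785 FPKM), Samhd1 in 16 (median 103 FPKM), Ifi204 in 13 and the chemokine gene Cxcl10 in 11, at 465 to 14557 FPKM where present. Ifit2, Ifit3, Mx2, Ifi44, Dhx58 and Cmpk2 were found in none. Of 15 interferon gamma targets, Psmb8, an immunoproteasome subunit, was found in 14 cells, Gbp3, a guanylate-binding protein, in 6, and Gbp5, Ciita and Psmb9 in 5 each. Psmb8 alone reached at least 50% of cells, which is 9.09% of the 11 present in any cell and close to the 9.27% of all genes. At least 10% of cells was reached by 10 of the 11 (90.9%), beside 49% of all genes. Cxcl9, Igtp, Tgtp1 and Nlrc5 were found in none. Among the remaining relatives, Ifi27 was found in 4 cells and Ifitm5, Ifitm7 and Ifitm10 in none.

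**Figure D5:**
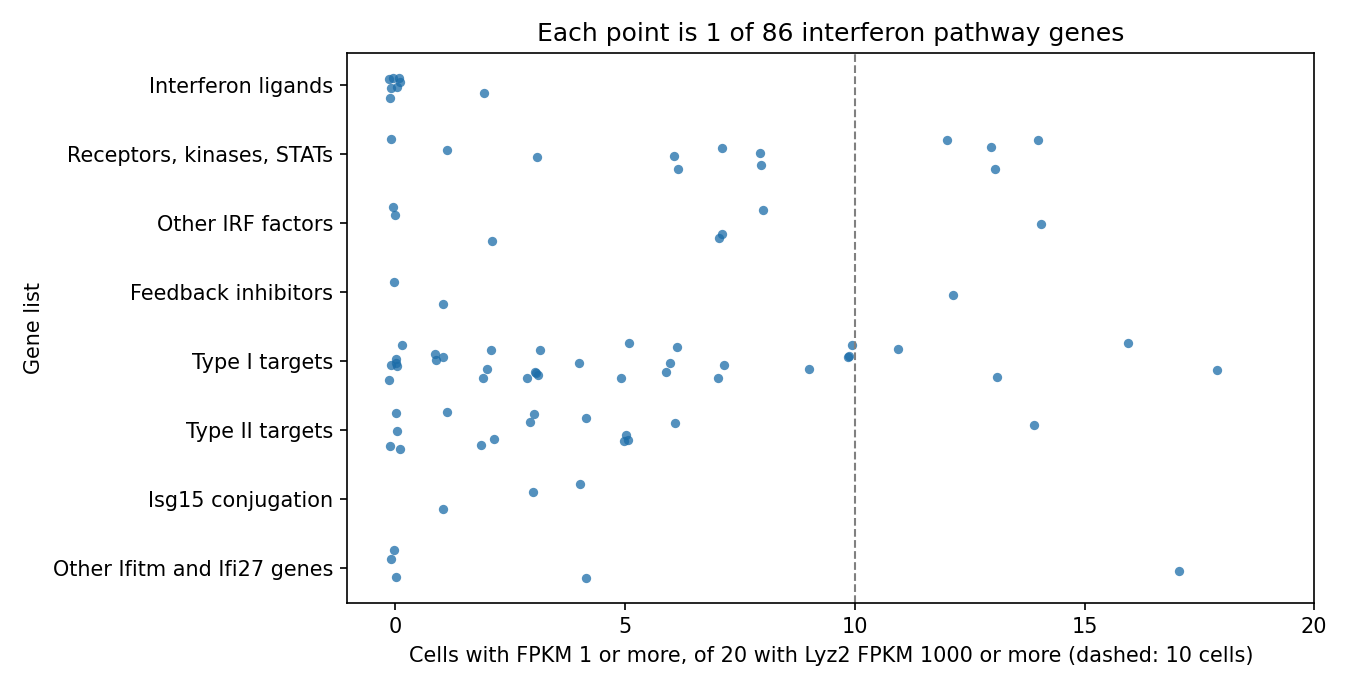
Number of the 20 Lyz2-high cells (horizontal axis) in which each gene of the interferon pathway lists is present at 1 FPKM or more, 1 point per gene with a small random shift so that points do not hide each other, and 1 row per list. A dashed line marks 10 cells. Ly6e lies at 18 cells and Samhd1 at 16, and the genes named as found in none lie at 0.

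The 33 type I targets were also counted per cell. The 8 cells with at least 1 of Isg15, Irf7 and Oasl2 held 7 to 16 of them (median 9.5), and the 12 cells with none held 4 to 15 (median 6). C7, with Oasl2, held 16, and F10, with none of the 3 genes, held 15. A10, which held the most of the 9 genes, held 7 of the 33. The ranges overlapped through F10, E12 and E7, which held none of the 3 genes and 15, 13 and 10 of the targets. The rest of the 12 cells held 6 or fewer, below the lowest of the 8 cells at 7. The cells are 1 sample, and this split was not tested.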

How the data were processed

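The authors deposited RSEM expected counts (reads estimated for each gene) and FPKM values scaled to transcript length and library size. Per the labels' protocols, polyadenylated RNA of single C1-captured cells was amplified with a SMARTer kit and made into Nextera XT libraries, which do not mark strand. RSEM, Trimmomatic and CASAVA 1.8 are named with GRCm38 per the submitters' processing notes. The annotation release was not given in the sources used here. Of 75 columns in the count table, 44 matched no sample and were not used. No molecular identifiers were named, so intervals and limits for a count of 0 (3 cells of the total) cover counting error over cells only.

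The 9 genes and all lists were chosen with earlier results of these data known. With 1 group and no named animal no test was made and no p-value is given. Presence was 1 FPKM or more, and shares carry exact Clopper-Pearson 95% intervals. Named were the 9 genes in every cell, the 5 genes of highest Spearman rho for Ifitm3, Ifitm6, Ifi27l2a and Ifngr1 among genes present in at least 10 Lyz2-high cells, and for each pathway list the 4 genes in most cells and those in none. Genes of the lists named beyond that rule (Stat2, Ifngr2, Ifnar1) were added after their values were seen, and a few genes that the rule names are not reported here. Symbols matched 46488 of 47069 identifiers. RefSeq promoter windows were held for 8 of the 9 genes. Of the counts above 0 of the 9 genes, 102 of 103 lay within 0.005 of a whole number, and no pair of libraries was identical. The likeness script was tested on simulated data. Python 3.11.15, pandas 2.3.3, numpy 2.4.6, scipy 1.17.1 and matplotlib 3.10.9 were used. Alternatives were other minimums for presence and Lyz2, coding-rich cells, counts in place of FPKM, other pseudocounts and another correlation.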

Additional observations from a re-analysis of the deposited data

How the results depend on the processing

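All 72 alternative values of presence and all 288 of co-detection stayed within the exact interval of the share in the 20 cells. All 45 of median levels stayed within 1 SD over cells. Of 50 alternative correlations, Spearman rho or Pearson r of log2 levels, 44 lay less than 0.2 from the Spearman rho first given. These bounds are wide. At a Lyz2 minimum of 100 FPKM, which takes in 25 cells, Ifitm2 was present in 21 (84%), near its lower bound of 83.2%. At the same minimum the median of Ifitm3 was 1817 FPKM against 4387 FPKM, and that of Ifngr1 was 55.4 FPKM against 191 FPKM. Medians of Ifitm1, Ifitm6, Isg15, Irf7 and Oasl2 were 0 in every setting. Rescaling cannot move a 0, so the checks of these 5 medians show little. At 5 FPKM as the minimum for presence, 11 of the 86 pathway genes were present in at least 50% of Lyz2-high cells, beside 7.30% of all genes. At 50 FPKM 6 of the 86 were, against 15 at 1 FPKM. The share of all genes at 50 FPKM was not computed, so that fall has no background to be set against. The share of all genes higher by 2 or more in Lyz2-high cells was 4.40% with a pseudocount of 10. The correlation of Ifitm2 with Ifitm3 ran from 0.70 to 0.86 over the settings. That of Ifitm2 with Ifitm6 ran from 0.68 to 0.73, and that of Ifitm3 with Ifi27l2a from 0.01 to 0.58. The lowest value of each pair is a Pearson r of log2 levels. Spearman rho alone ran from 0.776 to 0.858, from 0.717 to 0.725 and from 0.344 to 0.579 for these pairs in the same order. The lists of the 5 most alike genes were unstable: in 20 of 24 checks only 1 to 3 of the 5 were kept. No pairing of samples was possible because all cells form 1 group, and the ratios and orders of genes within a cell are descriptions. A gene absent from a cell may lie below what 1 amplified library detects. Presence on 1 count (Ifitm3 in B4, G1 and G3, Ifi27l2a in F1, Ifitm2 in F8) is fragile.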

Other observations

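Some interferon pathway genes were present in a larger share of the 11 cells without high Lyz2 than of the 20 Lyz2-high cells, opposite to Ifitm2 and Ifitm3. The share of all genes with this direction of presence was not computed. By another measure, mean log2(FPKM + 1), 8.99% of all genes were lower by 2 or more in Lyz2-high cells. The direction is therefore not read as a trait of interferon targets. Eif2ak2, the double-stranded RNA-activated kinase, was present in 2 of 20 Lyz2-high cells and 9 of 11 other cells. Ube2l6, the conjugating enzyme of Isg15, was present in 4 of 20 Lyz2-high cells and 9 of 11 other cells. The other cells had more genes at 1 FPKM or more, with a median of 2415 genes in Lyz2-high cells and 3200 in the others, and 10 of the 11 had a coding share of at most 61.6%. The part of this library content in those counts was not tested, and the genes were chosen after their values were seen.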
